A study of Mus musculus with 12 samples.

Results

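The genes described here are 30 genes of the oligodendrocyte lineage, from precursor cells to myelin-forming cells, in RNA sequencing of the mouse ventral hippocampus. They were found in the count table by gene symbol, by a rule that used no measured value, and they are 30 of 54532 genes in that table. All 30 passed the filter on low counts, as did 16915 genes in all. The study had 12 libraries in 4 groups of 3. SSDS-shACOT12 mice had Acot12, a gene for an enzyme that splits acetyl-CoA, knocked down in the liver and were exposed to SSDS. SSDS-GFP mice received the vector AAV8-eGFP and were exposed to SSDS. CSDS mice were exposed to CSDS, and Control mice had no treatment. The labels give the genotype of every group as WT. In this field SSDS and CSDS usually stand for subthreshold and chronic social defeat stress, but the labels hold only the abbreviations. The count columns of both virus groups carry the name TBG, usually that of a promoter active in hepatocytes. Strain, sex and age are not given in the sources used here. Nothing in the labels says that the libraries of a group came from separate animals, so a p-value measures the spread between these libraries, which may be technical.

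Oligodendrocytes wrap axons of the central nervous system in myelin, a compact stack of membrane rich in cholesterol, galactolipids and a few proteins. They arise from precursor cells that divide in response to platelet-derived growth factor and carry the receptor Pdgfra and the proteoglycan Cspg4, also called NG2. Precursors that leave the cycle pass through a short committed stage marked by Gpr17, Bmp4, Enpp6 and Bcas1, and then switch on the myelin genes under Sox10 and Myrf. The list therefore holds 16 genes of mature cells, of which 11 encode myelin and adhesion proteins and 5 encode lipid enzymes, an iron carrier and a receptor. It also holds 5 transcription factors, 4 genes of committed or newly formed cells and 5 genes of precursors. In whole tissue, fewer cells of a type and less RNA per cell cannot be told apart.

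The total per library ran from 14656714 counts in SSDS-GFP 1 to 17694570 counts in CSDS 2. Levels are given as CPM, counts relative to the scaled library size, and levels of different genes are compared as the deposited FPKM, which also divide by gene length. SSDS-shACOT12 1, SSDS-shACOT12 3 and SSDS-GFP 3 stood apart on the first principal component of all tested genes, which held 31.3% of the variance. Their positions were -37.4, -63.1 and -35.7, while the other libraries lay between -5.82 and 30.4. Mitochondrial genes took 3.23% and 4.31% of the counts in SSDS-shACOT12 1 and 3, against 6.31% to 9.24% elsewhere. Acot12 itself had 3 to 7 counts in SSDS-shACOT12, 3 to 8 in SSDS-GFP, 7 to 14 in CSDS and 9 to 12 in Control libraries, too few to check a knockdown that was made in the liver.

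No gene of the oligodendrocyte list passed the test in any of 4 comparisons. The test was the edgeR quasi-likelihood test over all 16915 genes, with Benjamini-Hochberg adjusted p under 0.05. Log2 fold changes carry a standard error (SE) derived from its F statistic. This SE is the absolute log2 fold change divided by the square root of F. For SSDS-shACOT12 against SSDS-GFP the test called 0 of 30, where the share of all genes called was 0%. There 0 of the 30 had an unadjusted p under 0.05, where 4.53% of all genes did. For CSDS against Control it again called 0 of 30 (0% of all genes), with 0 of 30 at an unadjusted p under 0.05 (5.87% of all genes). For SSDS-GFP against Control it called 0 of 30 (0.0946% of all genes), with 2 of 30 at an unadjusted p under 0.05 (15.2% of all genes). For SSDS-shACOT12 against Control it called 0 of 30 (0.0828% of all genes), with 5 of 30 at an unadjusted p under 0.05 (24.2% of all genes). DESeq2 called 0 of the 30 in the first 3 of these comparisons and 1, Sox10, in the last, where it called 11.3% of all genes. Other settings called more. Voom with library weights called 3 in SSDS-GFP against Control (13.2% of all genes) and 10 in SSDS-shACOT12 against Control (24.7%), where the fit with no filter called 3 (5.31%). Without SSDS-shACOT12 2, 3 were called against SSDS-GFP (5.70%) and 10 against Control (24.5%), and without SSDS-GFP 2, 1 was called in SSDS-shACOT12 against Control (2.98%). The 3 comparisons with Control share its libraries and are not independent.

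Fold changes of the list pointed both ways. In SSDS-shACOT12 against SSDS-GFP 7 genes were higher and 23 lower, with a median log2 fold change of -0.14 against 0.01 over all tested genes. Against Control, the CSDS group had 9 genes higher and 21 lower with a median of -0.09, beside 0.00146 over all genes. SSDS-GFP had 16 higher and 14 lower with a median of 0.02, beside 0.00623 over all genes. SSDS-shACOT12 had 11 higher and 19 lower with a median of -0.11, beside 0.01 over all genes. Leaving out 1 library moved these medians. In SSDS-shACOT12 against SSDS-GFP they ran from -0.27 without SSDS-GFP 3 to -0.0317 without SSDS-shACOT12 3. The CSDS median became 0.00604 without CSDS 2 and 0.0167 without Control 1. The SSDS-GFP median became -0.0845 without SSDS-GFP 1, -0.0453 without Control 3 and 0.136 without Control 1, and the SSDS-shACOT12 median against Control became 0.014 without Control 1.

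Among the 16 mature genes of the list more fold changes lay below 0 than above it in 3 of the 4 comparisons, with no gene called. The 30 further mature genes described below did not share this against Control. Of those 30, 11 were below 0 in SSDS-shACOT12 (median 0.111), 9 in SSDS-GFP (median 0.254) and 13 in CSDS (median 0.106). In SSDS-shACOT12 against SSDS-GFP 19 of those 30 were below 0 (median -0.121). In SSDS-shACOT12 against SSDS-GFP 14 of 16 mature genes had a fold change below 0, with a median of -0.27, while 4 of 5 precursor genes did, with a median of -0.04. In SSDS-shACOT12 against Control 12 of 16 mature genes were below 0 (median -0.20), in SSDS-GFP against Control 8 of 16 (median 0.00758), and in CSDS against Control 13 of 16 (median -0.09). All 11 myelin and adhesion genes were below 0 in CSDS against Control, from -0.27 to -0.02. Among all 16915 genes 8120, 8244, 8328 and 8413 were below 0 in that order. The mature median stayed below 0 in SSDS-shACOT12 against SSDS-GFP when any 1 of the 6 libraries was left out, from -0.417 without SSDS-GFP 3 to -0.148 without SSDS-GFP 1, and in CSDS against Control it became 0.0151 without Control 1. In SSDS-GFP against Control it was -0.168 without SSDS-GFP 1 and 0.124 without Control 1. In SSDS-shACOT12 against Control it ran from -0.391 without SSDS-shACOT12 2 to -0.0177 without Control 1.

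**Figure D1:**
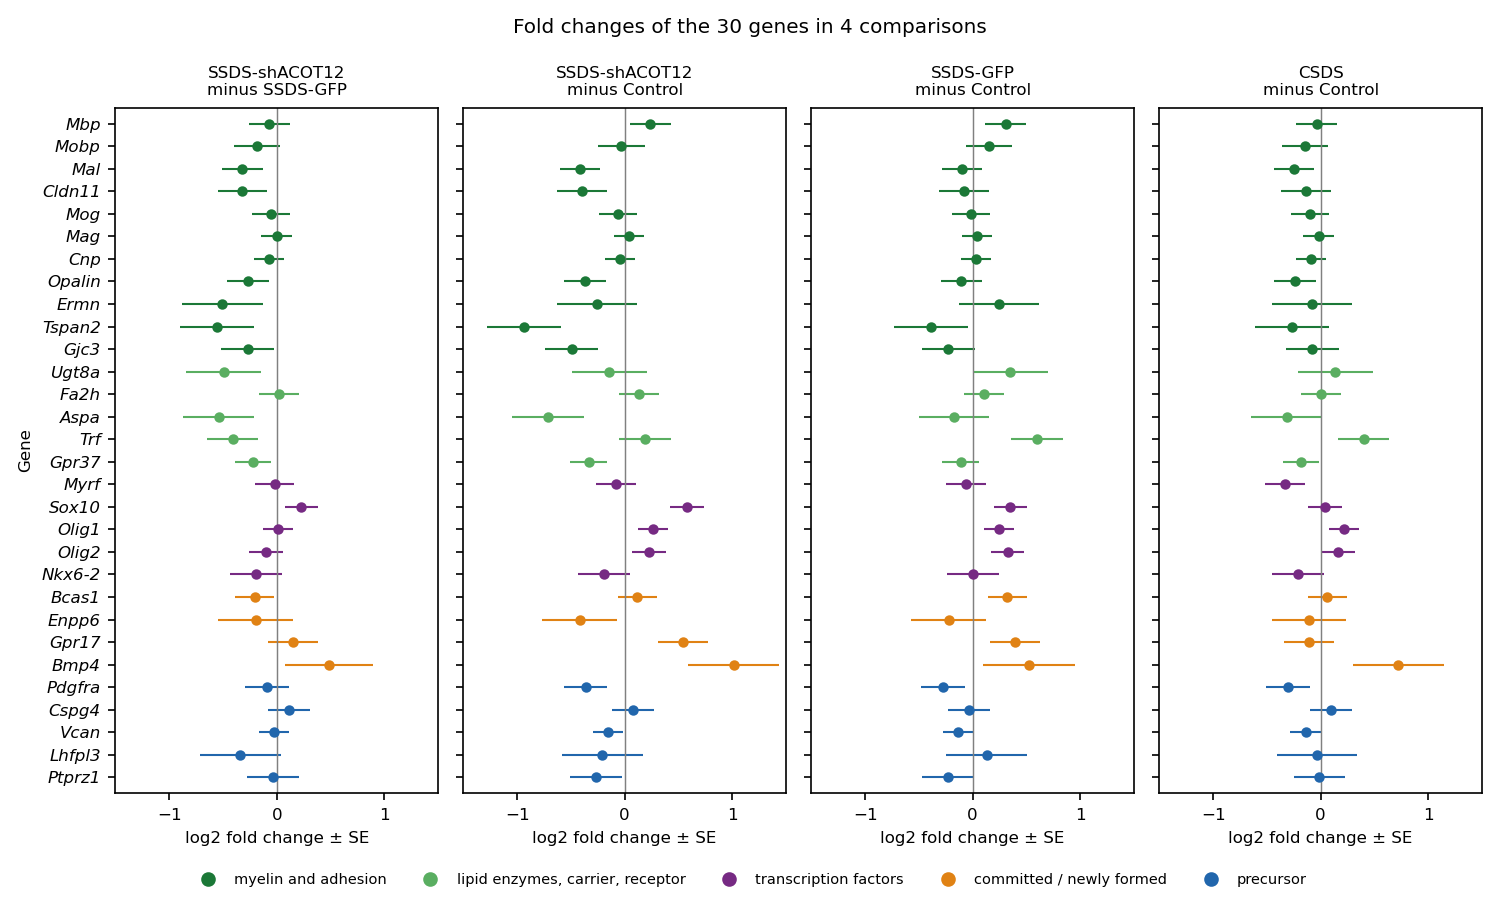
Log2 fold change (horizontal axis) with its SE (bar) for each of the 30 genes (rows, coloured by role) in 4 comparisons. No gene passed the test, and the fold changes farthest from 0 are those of Bmp4 (1.01) and Tspan2 (-0.94) in SSDS-shACOT12 against Control.

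Per length, myelin protein genes led the list. The mean over 12 libraries was 395 FPKM for Mbp, 167 for Mobp, 80.9 for Cnp, 75.3 for Cldn11 and 75.02 for Mal. Bcas1 (52.6 FPKM) and Olig1 (47.1 FPKM) were the highest genes outside the mature group. At the other end were Cspg4 (1.68 FPKM), Vcan (1.19 FPKM), Enpp6 (1.00 FPKM) and Bmp4 (0.901 FPKM). Bmp4 had 15 to 60 counts per library, so its values carry the widest counting error of the list. The 30 genes together held 6378 to 6704 CPM in SSDS-shACOT12, 5856 to 9156 in SSDS-GFP, 5563 to 6309 in CSDS and 5208 to 6972 in Control libraries. Mbp alone made up 47.9% to 57.8% of the counts in that sum, and Mbp with Mobp 64.5% to 75.5%.

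**Figure D2:**
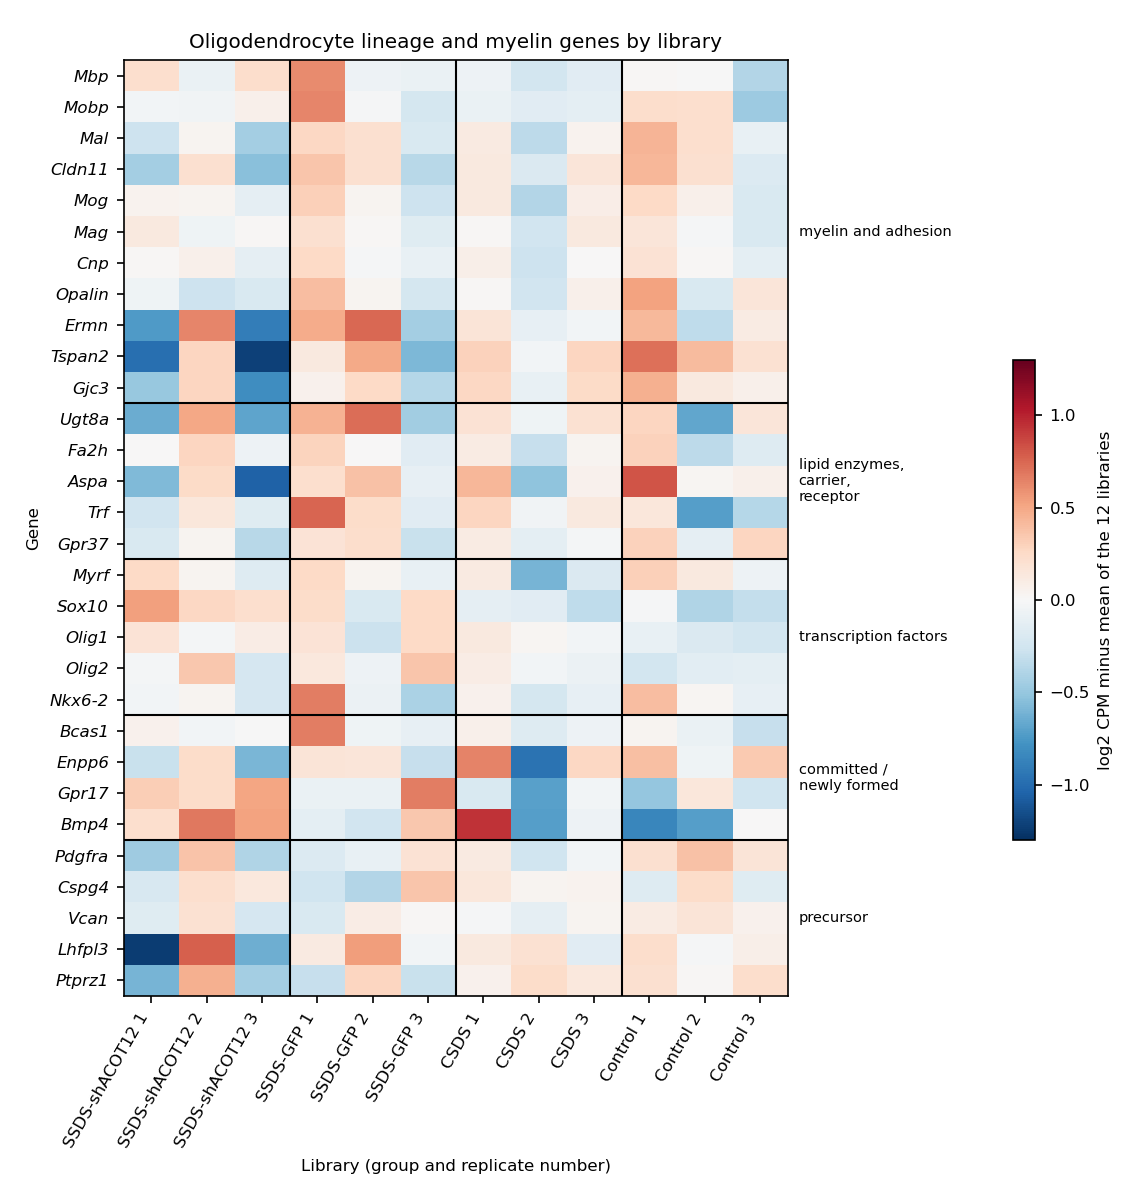
Log2 CPM of each gene (rows, ordered by role) in each library (columns, by group), minus the gene's mean over the 12 libraries. SSDS-GFP 1 and Control 1 are high over much of the myelin block, and SSDS-shACOT12 1 and 3 are low for Ermn, Tspan2, Gjc3, Ugt8a, Aspa and Lhfpl3 but not for Mbp or Mag.

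Genes for the basic proteins of compact myelin were highest in 1 library, SSDS-GFP 1. Mbp (chromosome 18, 82475146 to 82585637, plus strand, mm10) encodes myelin basic protein, which holds the cytoplasmic faces of the myelin membrane together. It had 3851, 3112 and 3867 CPM in SSDS-shACOT12, 5083, 3172 and 3117 in SSDS-GFP, 3154, 2815 and 2989 in CSDS and 3340, 3294 and 2543 in Control libraries. SSDS-GFP 1 stood far above the other libraries and Control 3 was lowest. The log2 fold change of Mbp was -0.07 ± 0.19 in SSDS-shACOT12 against SSDS-GFP (adjusted p = 0.932) and 0.31 ± 0.19 in SSDS-GFP against Control (adjusted p = 0.46). Voom with library weights called Mbp in SSDS-GFP against Control (0.52, adjusted p = 0.0369), among 13.2% of all genes. Without SSDS-GFP 1 the edgeR value was 0.0263. Mobp, a second basic protein of compact myelin, had 1107, 1102 and 1184 CPM in SSDS-shACOT12, 1758, 1123 and 969 in SSDS-GFP, 1071, 1024 and 1043 in CSDS and 1332, 1319 and 816 in Control libraries. Its highest and lowest libraries were the same as for Mbp, and every other group overlapped Control.

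Glycoproteins of the outer and innermost myelin layers varied less. Mog, found on the outer surface of the sheath, had 67.7, 67.5 and 60.8 CPM in SSDS-shACOT12, 81.5, 67.3 and 54.5 in SSDS-GFP, 71.6, 50.3 and 69.8 in CSDS and 78.98, 68.98 and 57.2 in Control libraries. Mag, which lies in the layer next to the axon, had 143, 126 and 132 CPM in SSDS-shACOT12, 151, 132 and 117 in SSDS-GFP, 132, 109 and 142 in CSDS and 146, 129 and 114 in Control libraries. For both genes every other group overlapped Control. The highest library of Mag was 1.38 times the lowest, the narrowest range among the mature genes. Its log2 fold change against Control was 0.04 ± 0.14 in SSDS-shACOT12, 0.04 ± 0.14 in SSDS-GFP and -0.02 ± 0.14 in CSDS. Cnp, the phosphodiesterase of non-compact myelin, ranged 1.45-fold over the 12 libraries. Cnp overlaps Dnajc7 on the opposite strand, and the library kit is not known to keep strand, so reads of the pair cannot be told apart.

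Opalin, Ermn and Tspan2, which encode membrane and cytoskeletal proteins of mature oligodendrocytes, spread wider than Mog and Mag. The range of Opalin, 1.74-fold, was narrower than that of Mbp or Mobp. Opalin had 25.5, 21.9 and 23.04 CPM in SSDS-shACOT12, 34.9, 27.1 and 22.6 in SSDS-GFP, 26.9, 22.2 and 27.8 in CSDS and 38.2, 23.1 and 29.6 in Control libraries. All groups of Opalin overlapped, with Control 1 highest. Ermn, an actin-binding protein of late myelination, had 29.8, 77.1 and 26.6 CPM in SSDS-shACOT12, 69.3, 83.4 and 36.6 in SSDS-GFP, 55.9, 46.3 and 48.4 in CSDS and 66.5, 39.4 and 53.7 in Control libraries. Ermn was low in the 3 libraries that stood apart on the first principal component and high in the other libraries of the same groups, so the 2 virus groups covered the whole range of the series. Its log2 fold change was -0.50 ± 0.37 in SSDS-shACOT12 against SSDS-GFP (adjusted p = 0.803). Without SSDS-shACOT12 2 it was -1.17, with an adjusted p of 0.0408, in a comparison that then called 5.70% of all genes.

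Tspan2 (chromosome 3, 102734529 to 102801513, plus strand), a tetraspanin of the myelin membrane, had the lowest fold change of the list. It had 45.8, 109.9 and 38.96 CPM in SSDS-shACOT12, 98.5, 127 and 60.4 in SSDS-GFP, 112, 88.5 and 109.9 in CSDS and 149, 120.1 and 104 in Control libraries. SSDS-shACOT12 1 and 3 and SSDS-GFP 3 were the 3 lowest libraries, while SSDS-shACOT12 2 lay among the Control values, so the groups overlapped. The log2 fold change was -0.94 ± 0.35 in SSDS-shACOT12 against Control (adjusted p = 0.13) and -0.55 ± 0.34 in SSDS-shACOT12 against SSDS-GFP (adjusted p = 0.803). In CSDS against Control it was -0.27 ± 0.34 (adjusted p = 0.958). Without SSDS-shACOT12 2 the values for SSDS-shACOT12 were -1.56 against Control (adjusted p = 0.00601) and -1.18 against SSDS-GFP (adjusted p = 0.0267). These comparisons then called 24.5% and 5.70% of all genes.

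Mal, a proteolipid that sorts membrane to myelin, was also low in SSDS-shACOT12 3. It had 172, 213 and 153 CPM in SSDS-shACOT12, 250.2, 239 and 181 in SSDS-GFP, 225, 164 and 214 in CSDS and 282, 242 and 193 in Control libraries. Control 1 was the highest library, and the groups overlapped. The fold change on the log2 scale was -0.42 ± 0.19 in SSDS-shACOT12 against Control (adjusted p = 0.193) and -0.32 ± 0.19 in SSDS-shACOT12 against SSDS-GFP (adjusted p = 0.803). Cldn11, the tight-junction protein of myelin, and Gjc3, a gap-junction protein, also had Control 1 highest and SSDS-shACOT12 3 lowest, with ranges of 1.97-fold and 2.40-fold. In SSDS-shACOT12 against Control their log2 fold changes were -0.40 ± 0.23 and -0.49 ± 0.25. Without SSDS-shACOT12 2 all 3 genes were called against Control, where 24.5% of all genes were, with adjusted p-values of 0.0475 for Mal, 0.0384 for Cldn11 and 0.0112 for Gjc3.

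Among genes for lipids and support, Ugt8a and Fa2h encode enzymes that make the galactolipids of myelin. Ugt8a, which adds galactose to ceramide, had 24.4, 54.1 and 23.7 CPM in SSDS-shACOT12, 52.5, 63.3 and 27.96 in SSDS-GFP, 43.5, 36.8 and 43.95 in CSDS and 46.3, 23.9 and 42.6 in Control libraries. As for Ermn, the 2 virus groups held both the highest and the lowest library, with Control 2 close to the lowest. Fa2h, which hydroxylates the fatty acid of these lipids, ranged 1.56-fold, with group means of 27.3 ± 3.51, 26.8 ± 4.24, 25.01 ± 3.68 and 24.9 ± 6.00 CPM in SSDS-shACOT12, SSDS-GFP, CSDS and Control (SD, n = 3 each). Gpr37, a receptor of the mature stage, ranged 1.58-fold.

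Aspa, which cleaves N-acetylaspartate to release acetate that oligodendrocytes can use for lipid synthesis, had 8.97, 15.98 and 6.38 CPM in SSDS-shACOT12, 15.6, 17.5 and 12.5 in SSDS-GFP, 18.1, 9.29 and 13.9 in CSDS and 23.7, 13.6 and 13.98 in Control libraries. Control 1 alone set the upper end, and SSDS-shACOT12 3 the lower. The log2 fold change was -0.54 ± 0.33 in SSDS-shACOT12 against SSDS-GFP (adjusted p = 0.803) and -0.71 ± 0.33 in SSDS-shACOT12 against Control (adjusted p = 0.209). Without SSDS-shACOT12 2 it was -1.16 against Control (adjusted p = 0.0198), in a comparison that then called 24.5% of all genes.

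Trf (chromosome 9, 103204001 to 103230444, minus strand) encodes transferrin, the iron carrier that oligodendrocytes make in large amounts. It had 27.5, 36.2 and 29.3 CPM in SSDS-shACOT12, 55.4, 38.7 and 29.5 in SSDS-GFP, 39.96, 31.8 and 35.9 in CSDS and 36.3, 19.99 and 25.3 in Control libraries. SSDS-GFP 1 was highest and Control 2 lowest, and Control 1 lay inside the ranges of SSDS-GFP and CSDS. The log2 fold change was 0.60 ± 0.24 in SSDS-GFP against Control (adjusted p = 0.264), 0.40 ± 0.24 in CSDS against Control (adjusted p = 0.889) and -0.41 ± 0.24 in SSDS-shACOT12 against SSDS-GFP (adjusted p = 0.803). Without SSDS-GFP 1 the value was 0.31 in SSDS-GFP against Control and -0.14 in SSDS-shACOT12 against SSDS-GFP. Voom with library weights called Trf in SSDS-GFP against Control (0.77, adjusted p = 0.0272), among 13.2% of all genes. The choroid plexus also makes transferrin, and its defining marker Ttr had 8.29, 2.17 and 3.10 CPM in SSDS-shACOT12, 16.6, 5.12 and 6.23 in SSDS-GFP, 3.63, 3.31 and 1.03 in CSDS and 504, 140.5 and 7.91 in Control libraries. Control 1, with the highest Ttr, had the highest Trf of the Control libraries, while Control 2, with the second highest Ttr, had the lowest Trf. The part of choroid plexus RNA in the Trf values was not tested.

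Of the transcription factors, Sox10, Olig1 and Olig2 were highest in libraries that were highest for no mature gene. Myrf was highest in Control 1 and Nkx6-2 in SSDS-GFP 1, as were many mature genes. Sox10 (chromosome 15, 79154908 to 79165240, minus strand), which is needed through the whole lineage and drives myelin genes, had 55.6, 46.3 and 44.7 CPM in SSDS-shACOT12, 45.6, 33.5 and 46.03 in SSDS-GFP, 35.4, 34.8 and 30.7 in CSDS and 37.9, 29.3 and 30.9 in Control libraries. Every SSDS-shACOT12 library lay above every Control library and every CSDS library, and SSDS-GFP overlapped all other groups. Against Control 14% of all genes lay wholly higher in SSDS-shACOT12. The log2 fold change of 0.58 ± 0.16 in SSDS-shACOT12 against Control had the smallest p of the list, with an adjusted p of 0.069. It was 0.57 with DESeq2 (adjusted p = 0.0151), which called 11.3% of all genes there. It was 0.31 with an adjusted p of 0.256 after the trend of log2 CPM with transcript GC content was removed from each library. SSDS-GFP against Control gave 0.35 ± 0.16 (adjusted p = 0.309) and SSDS-shACOT12 against SSDS-GFP gave 0.23 ± 0.15 (adjusted p = 0.803). In CSDS against Control it was 0.04 ± 0.16 (adjusted p = 0.992).

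Olig1 and Olig2 are neighbouring genes on chromosome 16 for basic helix-loop-helix factors of the lineage. Of the 30 genes only these 2 lay wholly higher in CSDS than in Control, where 10.2% of all genes did. Olig1 had 116, 101 and 109.6 CPM in SSDS-shACOT12, 116, 84.3 and 123 in SSDS-GFP, 112, 104 and 100.1 in CSDS and 95.4, 89.8 and 86.9 in Control libraries. Olig2 had 26.9, 35.02 and 23.5 CPM in SSDS-shACOT12, 30.2, 26.1 and 35.3 in SSDS-GFP, 29.3, 26.7 and 25.96 in CSDS and 23.2, 24.9 and 25.04 in Control libraries. For both genes every CSDS library lay above every Control library, as did all SSDS-shACOT12 libraries for Olig1 and all SSDS-GFP libraries for Olig2. The shares of all genes wholly above Control in these 2 virus groups were 14% and 12.5%. In CSDS against Control the log2 fold change was 0.21 ± 0.14 for Olig1 (adjusted p = 0.901) and 0.16 ± 0.16 for Olig2 (adjusted p = 0.931). In SSDS-GFP against Control it was 0.25 ± 0.14 for Olig1 (adjusted p = 0.42) and 0.32 ± 0.16 for Olig2 (adjusted p = 0.35).

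Myrf, the factor that starts and maintains myelin gene expression, had 42.9, 36.8 and 31.8 CPM in SSDS-shACOT12, 42.9, 36.7 and 33.6 in SSDS-GFP, 38.8, 23.5 and 31.4 in CSDS and 44.5, 39.3 and 34.2 in Control libraries. CSDS 2 was the lowest library and CSDS 1 lay inside the Control range. The fold change of -0.33 ± 0.18 on the log2 scale in CSDS against Control had the smallest p of the list in that comparison, with an adjusted p of 0.873. Nkx6-2, a homeodomain factor of mature cells, ranged 2.10-fold and had group means of 10.4 ± 0.949, 11.9 ± 4.79, 10.3 ± 1.03 and 11.9 ± 2.28 CPM in SSDS-shACOT12, SSDS-GFP, CSDS and Control (SD, n = 3 each). Nkx6-2 overlaps Inpp5a on the opposite strand, which has more counts, so its value is uncertain.

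Genes of the committed and newly formed stage passed no edgeR test and had their highest values in SSDS-GFP or CSDS libraries. Bcas1, which marks cells that are starting to myelinate, had 206, 194 and 198 CPM in SSDS-shACOT12, 314, 190.3 and 184 in SSDS-GFP, 208, 177 and 190 in CSDS and 203, 186 and 162 in Control libraries. SSDS-GFP 1 was again far above the rest, as it was for Mbp and Mobp, and the log2 fold change of SSDS-GFP against Control was 0.32 ± 0.18 (adjusted p = 0.421). It was 0.0145 without SSDS-GFP 1, and 0.54 with voom and library weights, which called Bcas1 (adjusted p = 0.0321) among 13.2% of all genes. Enpp6, a choline phosphodiesterase of newly formed oligodendrocytes, had 5.07, 7.38 and 4.09 CPM in SSDS-shACOT12, 7.00, 6.96 and 5.03 in SSDS-GFP, 9.83, 3.13 and 7.55 in CSDS and 8.22, 5.97 and 7.91 in Control libraries. The CSDS group held both its highest and its lowest library, and no comparison gave an adjusted p under 0.474.

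Gpr17, a receptor of committed precursors that holds back maturation, had 52.1, 49.1 and 59.2 CPM in SSDS-shACOT12, 39.1, 39.05 and 65.99 in SSDS-GFP, 36.3, 25.5 and 40.5 in CSDS and 29.2, 45.95 and 34.9 in Control libraries. Bmp4, a ligand that committed precursors make, had 2.23, 3.12 and 2.79 CPM in SSDS-shACOT12, 1.73, 1.57 and 2.46 in SSDS-GFP, 3.76, 1.10 and 1.81 in CSDS and 0.995, 1.10 and 1.90 in Control libraries. For both genes every SSDS-shACOT12 library lay above every Control library, as for 14% of all genes, while SSDS-GFP and CSDS overlapped Control. In SSDS-shACOT12 against Control the log2 fold change was 0.54 ± 0.23 for Gpr17 (adjusted p = 0.178) and 1.01 ± 0.42 for Bmp4 (adjusted p = 0.169). There voom with library weights gave 0.66 for Gpr17 and called it (adjusted p = 0.043), among 24.7% of all genes. In SSDS-shACOT12 against SSDS-GFP it was 0.15 ± 0.23 for Gpr17 (adjusted p = 0.871) and 0.49 ± 0.41 for Bmp4 (adjusted p = 0.803). For Bmp4 in CSDS against Control it was 0.72 ± 0.43 (adjusted p = 0.884), led by CSDS 1. Gpr17 overlaps Lims2 on the opposite strand, which had fewer counts.

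Over the 5 precursor genes together, SSDS-shACOT12 1 and 3 were the lowest libraries. Pdgfra (chromosome 5, 75152292 to 75198215, plus strand), the receptor that keeps precursors dividing, had 26.5, 47.2 and 27.8 CPM in SSDS-shACOT12, 32.2, 34.1 and 41.6 in SSDS-GFP, 39.6, 30.4 and 35.7 in CSDS and 42.1, 47.5 and 41.04 in Control libraries. Every CSDS library lay below every Control library, as for 10.1% of all genes. SSDS-shACOT12 1 and 3 were the 2 lowest of the series while SSDS-shACOT12 2 was close to the highest. The log2 fold change was -0.31 ± 0.20 in CSDS against Control (adjusted p = 0.902) and -0.36 ± 0.20 in SSDS-shACOT12 against Control (adjusted p = 0.28). For SSDS-shACOT12 against Control the value was -0.69 without SSDS-shACOT12 2 (adjusted p = 0.00947) and -0.59 with voom and library weights (adjusted p = 0.0177), both past the threshold. These settings called 24.5% and 24.7% of all genes. Fibroblasts of the meninges also carry Pdgfra, and their marker Dcn had 14.3, 106 and 20.9 CPM in SSDS-shACOT12, 32.1, 8.60 and 93.8 in SSDS-GFP, 41.6, 30.2 and 14.2 in CSDS and 12.3, 22.3 and 10.9 in Control libraries. The libraries highest in Dcn, SSDS-shACOT12 2 and SSDS-GFP 3, were also the highest in Pdgfra within their groups. The mean centred log2 CPM of all 7 tested fibroblast markers did not follow Dcn throughout. It was -0.44, 0.05 and 0.11 in SSDS-shACOT12, -0.07, -0.69 and 0.39 in SSDS-GFP, 1.02, -0.41 and -0.40 in CSDS and 0.22, 0.05 and 0.16 in Control libraries. The part of fibroblast RNA in Pdgfra was not tested.

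Cspg4, the NG2 proteoglycan of precursors and pericytes, had 17.3, 23.4 and 22.1 CPM in SSDS-shACOT12, 16.8, 15.4 and 25.9 in SSDS-GFP, 22.2, 20.6 and 20.6 in CSDS and 17.8, 23.6 and 17.96 in Control libraries. Vcan, a matrix proteoglycan of precursors, had 15.5, 19.9 and 14.9 CPM in SSDS-shACOT12, 15.1, 18.5 and 17.5 in SSDS-GFP, 17.2, 15.97 and 17.8 in CSDS and 18.6, 19.5 and 17.96 in Control libraries. Vcan had the narrowest range of the list, 1.33-fold. Its CSDS libraries all lay below every Control library, as for 10.1% of all genes. The log2 fold change of Vcan in that comparison was -0.14 ± 0.14 (adjusted p = 0.934). Cspg4 groups all overlapped.

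Ptprz1, a receptor phosphatase of precursors and astrocytes, had 109, 228 and 122 CPM in SSDS-shACOT12, 135, 201 and 136 in SSDS-GFP, 172, 195 and 182 in CSDS and 191, 168 and 195 in Control libraries. Lhfpl3, a membrane protein used as a precursor marker, had 5.88, 24.1 and 8.98 CPM in SSDS-shACOT12, 15.2, 20.5 and 13.6 in SSDS-GFP, 15.3, 16.1 and 12.6 in CSDS and 16.4, 13.9 and 14.8 in Control libraries. Both genes were highest in SSDS-shACOT12 2 and lowest in SSDS-shACOT12 1, and Lhfpl3 had the widest range of the list, 4.04-fold. The SSDS-shACOT12 group therefore spanned the values of all other groups for both, and with edgeR no comparison gave an adjusted p under 0.505 for Ptprz1 or 0.756 for Lhfpl3. Without SSDS-shACOT12 2, Lhfpl3 was at -1.15 on the log2 scale in SSDS-shACOT12 against SSDS-GFP (adjusted p = 0.0192), and at -1.02 against Control (adjusted p = 0.00986). Ptprz1 was then at -0.68 against Control (adjusted p = 0.0151). Without that library 5.70% of all genes were called against SSDS-GFP and 24.5% against Control. With all libraries voom with weights also called both against Control, among 24.7% of all genes. The values were -0.59 for Ptprz1 (adjusted p = 0.0199) and -0.91 for Lhfpl3 (adjusted p = 0.0221).

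Groups that did not overlap were counted in the list and among all genes. In CSDS against Control 2 of 30 genes lay wholly higher (Olig1 and Olig2), where 10.2% of all genes did, and 2 lay wholly lower (Pdgfra and Vcan), where 10.1% did. In SSDS-shACOT12 against Control 4 of 30 lay wholly higher (Olig1, Gpr17, Sox10 and Bmp4), where 14% of all genes did, and 0 lay wholly lower, where 11.6% did. In SSDS-GFP against Control 1 of 30, Olig2, lay wholly higher, where 12.5% of all genes did, and 0 wholly lower, where 11.4% did. In SSDS-shACOT12 against SSDS-GFP 0 of 30 lay wholly higher or lower, where 2.23% and 2.58% of all genes did. Same-numbered libraries of these 2 groups deviated together, so they were also set against each other pair by pair, a step chosen after seeing the data. Libraries of unlike number also deviated together between other groups, so the numbers are not shown to pair the samples. The mature mean was lower in SSDS-shACOT12 in each pair, with differences of -0.617, -0.0747 and -0.137 on the log2 scale, while the precursor mean differed by -0.369, 0.319 and -0.357. In all 3 pairs 8 of 30 genes were lower in SSDS-shACOT12 (Mal, Cldn11, Ermn, Tspan2, Ugt8a, Aspa, Trf and Gpr37), where 17.6% of all genes were, and 1, Bmp4, was higher, where 15% of all genes were. For Tspan2 the 3 differences were -1.1, -0.206 and -0.631. An edgeR fit of all 12 libraries with replicate number as a block still called 0 of 30 and 0% of all genes here. Its block effect was shared by all 4 groups, so it was not a test of these 3 pairs alone.

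Upstream sequence is shown for the mature genes and the precursor genes with the smallest unadjusted p among those that RefSeq's promoter table (GRCm38.p6) holds, 2 of each. These are the 250 bases before RefSeq's start of the transcript, 5′ to 3′ on the gene's strand, for Tspan2 (chr3:102734520-102734769, plus strand), Mal (chr2:127656696-127656945, minus strand), Pdgfra (chr5:75152001-75152250, plus strand) and Vcan (chr13:89742513-89742762, minus strand). Capitals mark the searched motifs, which were found only in the Tspan2 window among these 4. The count table places the start of Tspan2 at 102734529, upstream of RefSeq's 102734770, so 241 bases of that window, the marked motif included, lie inside the gene as it was counted. The other 3 windows lie wholly outside the counted genes.
Tspan2: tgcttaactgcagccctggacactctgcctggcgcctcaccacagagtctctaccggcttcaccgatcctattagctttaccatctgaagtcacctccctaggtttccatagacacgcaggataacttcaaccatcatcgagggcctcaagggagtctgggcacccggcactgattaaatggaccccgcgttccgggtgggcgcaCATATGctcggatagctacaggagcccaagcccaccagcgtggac
Mal: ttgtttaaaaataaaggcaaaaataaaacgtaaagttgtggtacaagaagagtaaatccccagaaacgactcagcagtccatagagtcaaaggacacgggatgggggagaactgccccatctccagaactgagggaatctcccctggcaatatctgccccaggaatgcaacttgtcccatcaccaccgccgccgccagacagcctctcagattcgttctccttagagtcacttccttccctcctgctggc
Pdgfra: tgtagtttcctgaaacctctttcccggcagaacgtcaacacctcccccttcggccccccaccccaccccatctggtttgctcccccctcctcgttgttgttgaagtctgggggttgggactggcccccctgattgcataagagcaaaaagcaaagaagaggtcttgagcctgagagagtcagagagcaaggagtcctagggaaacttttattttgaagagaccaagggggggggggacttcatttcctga
Vcan: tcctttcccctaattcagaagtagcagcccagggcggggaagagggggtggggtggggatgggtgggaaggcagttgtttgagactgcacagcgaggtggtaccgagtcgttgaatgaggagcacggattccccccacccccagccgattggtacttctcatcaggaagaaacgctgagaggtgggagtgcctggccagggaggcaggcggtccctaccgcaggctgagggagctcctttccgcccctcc
The table held 22 of the 30 genes, and Mbp, Trf, Fa2h, Myrf, Sox10, Olig1, Bcas1 and Gpr17 were not matched. Both strands of each window were searched for 6 motifs. ACAAAG, a core of SOX sites, was in 4 of 22 windows (Cnp, Mag, Mobp and Opalin) and in 16.5% of 32851 promoters of the same length. ACAATG, another SOX core, was in 3 of 22 (Enpp6, Ermn and Olig2) and in 10.7% of all. CAGCTG, an E-box, was in 2 of 22 (Aspa and Lhfpl3) and in 13% of all, and CATATG, an E-box that OLIG factors can bind, was in 1 of 22 (Tspan2) and in 3.46% of all. CTGGCAC, a MYRF core, was in 2 of 22 (Cnp and Mag) and in 4.19% of all, and CTGGTAC was in 1 of 22 (Mog) and in 1.83% of all. None of the 6 motifs holds another, a match is only a string of letters in the window, and sequence outside the windows was not searched.

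The balance of mature against precursor genes differed between the groups by less than the spread of the libraries. It was taken per library as the mean centred log2 CPM of the 16 mature genes minus that of the 5 precursor genes. The mature mean was -0.27, 0.14 and -0.40 in SSDS-shACOT12, 0.35, 0.22 and -0.26 in SSDS-GFP, 0.14, -0.21 and 0.07 in CSDS and 0.36, -0.07 and -0.07 in Control libraries. The precursor mean was -0.53, 0.41 and -0.31 in SSDS-shACOT12, -0.16, 0.09 and 0.05 in SSDS-GFP, 0.09, 0.02 and 0.01 in CSDS and 0.12, 0.16 and 0.07 in Control libraries. SSDS-shACOT12 1 and 3 were low for both sets, and SSDS-GFP 1 combined a high mature mean with a low precursor mean.

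The mature minus precursor difference was 0.27, -0.26 and -0.09 in SSDS-shACOT12, 0.51, 0.13 and -0.31 in SSDS-GFP, 0.05, -0.23 and 0.06 in CSDS and 0.24, -0.23 and -0.15 in Control libraries. Group means were -0.03 ± 0.27, 0.11 ± 0.41, -0.04 ± 0.16 and -0.04 ± 0.25 in SSDS-shACOT12, SSDS-GFP, CSDS and Control (SD, n = 3 each). SSDS-shACOT12 minus SSDS-GFP was -0.141, against a pooled SD of 0.348, and CSDS minus Control was 0.00526, against a pooled SD of 0.212. SSDS-GFP minus Control was 0.156, against a pooled SD of 0.340, and SSDS-shACOT12 minus Control was 0.0155, against a pooled SD of 0.260. Every group held libraries of both signs. Each difference depended on single libraries. SSDS-shACOT12 minus SSDS-GFP was 0.06 without SSDS-GFP 1 and -0.351 without SSDS-GFP 3, and CSDS minus Control ran from -0.0859 without Control 2 to 0.148 without Control 1. SSDS-GFP minus Control was -0.0445 without SSDS-GFP 1 and 0.366 without SSDS-GFP 3, and SSDS-shACOT12 minus Control ran from -0.132 without SSDS-shACOT12 1 to 0.158 without Control 1. After the trend with gene length was removed from each library, SSDS-shACOT12 minus Control was -0.177 and SSDS-GFP minus Control 0.016.

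**Figure D3:**
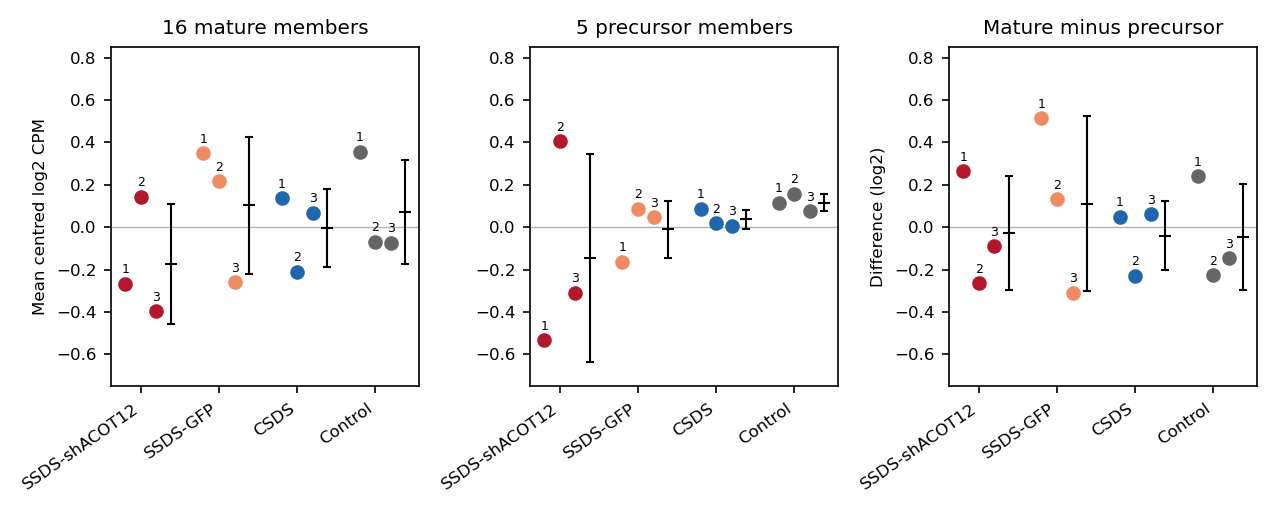
Mean centred log2 CPM of the 16 mature genes, of the 5 precursor genes, and their difference (vertical axes, log2 units) for each library (points, numbered by replicate) in 4 groups, with the group mean ± SD in black. In the difference every group holds points on both sides of 0, from -0.31 in SSDS-GFP 3 to 0.51 in SSDS-GFP 1.

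A few libraries held many of the highest and lowest values. Of the 30 genes, 9 were highest in Control 1 (8 of them mature genes) and 8 in SSDS-GFP 1 (6 of them mature). SSDS-shACOT12 3 was lowest for 9 genes, 8 of them mature, and CSDS 2 for 6. The median SD of log2 CPM over the 30 genes was 0.219 in SSDS-shACOT12, 0.308 in SSDS-GFP, 0.178 in CSDS and 0.234 in Control, against 0.308, 0.246, 0.158 and 0.155 over all tested genes in the same groups.

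In several libraries the level of these genes followed the GC content of their transcripts. Transcript GC content ran from 38% for Ermn and Ugt8a to 64.3% for Nkx6-2, with medians of 50% for the 11 myelin and adhesion genes, 61.1% for the transcription factors and 44.5% for the precursor genes. Over the 30 genes, Spearman's rho of the centred level with GC content was 0.772, -0.403 and 0.759 in SSDS-shACOT12, and 0.102, -0.814 and 0.503 in SSDS-GFP. It was -0.446, -0.101 and -0.473 in CSDS, and -0.550, -0.0763 and -0.665 in Control libraries. Over 16898 genes it had the same sign in each of the 12 libraries, at 0.615, -0.334 and 0.563 in SSDS-shACOT12, 0.0197, -0.537 and 0.376 in SSDS-GFP, -0.147, -0.354 and -0.173 in CSDS, and -0.393, -0.0853 and -0.276 in Control. The genes of a library share its RNA and its preparation, so these are descriptions of libraries. The 3 libraries with the largest positive values were those that stood apart on the first principal component.

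Split at 50.9% GC, the 15 genes of higher GC content stood above the other 15 by 0.564, -0.131 and 0.628 in SSDS-shACOT12, 0.133, -0.367 and 0.3 in SSDS-GFP, -0.0825, -0.0530 and -0.145 in CSDS, and -0.394, -0.139 and -0.314 in Control (log2 units). All CSDS and Control libraries were below 0, and each virus group held both signs. Removing the trend with GC content from each library, an alternative chosen after these values were seen, left 0 of 30 genes called in every comparison by limma, with 0 at an unadjusted p under 0.05 in SSDS-shACOT12 against SSDS-GFP, 3 in SSDS-shACOT12 against Control, 2 in SSDS-GFP against Control and 0 in CSDS against Control. The shares of all genes it called were 0%, 2.71%, 0.544% and 0%. In SSDS-shACOT12 against Control the log2 fold change of Tspan2 became -0.78 (adjusted p = 0.0811), that of Aspa -0.26, that of Ugt8a 0.33 in place of -0.14, and that of Olig1 -0.00727 in place of 0.26.

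**Figure D4:**
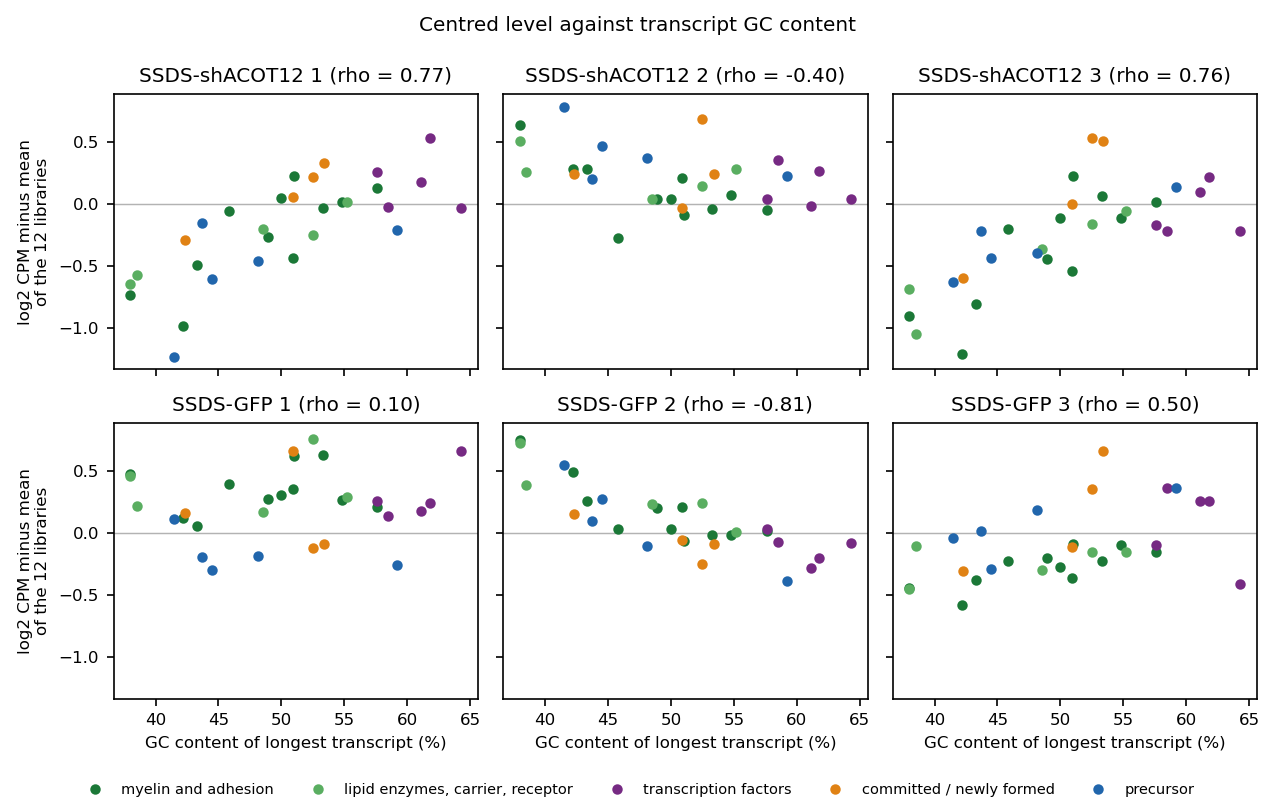
Centred log2 CPM of the 30 genes (vertical axis) against the GC content of the longest transcript (horizontal axis, %) in the 6 SSDS-shACOT12 and SSDS-GFP libraries, coloured by role. The points slope upwards in SSDS-shACOT12 1 and 3 and SSDS-GFP 3 (rho 0.772, 0.759 and 0.503) and downwards in SSDS-shACOT12 2 and SSDS-GFP 2 (rho -0.403 and -0.814).

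Other genes of the lineage also passed no edgeR test. Of 30 further mature genes 0 were called, with 0 at an unadjusted p under 0.05 in SSDS-shACOT12 against SSDS-GFP, 7 in SSDS-shACOT12 against Control, 9 in SSDS-GFP against Control and 2 in CSDS against Control, where 4.53%, 24.2%, 15.2% and 5.87% of all genes had such a p. In the same order DESeq2 called 0, 6, 1 and 0 of them, voom with library weights 0, 5, 7 and 0, and limma on log2(FPKM + 1) none. Over all genes the shares called in that order were 0%, 11.3%, 3.61% and 0.0355% by DESeq2, 0%, 24.7%, 13.2% and 0.201% by voom, and 0%, 0.142%, 0.0709% and 0% by limma. Cryab, a small heat shock protein of oligodendrocytes, averaged 97.6 ± 3.38 CPM in SSDS-shACOT12, 104 ± 21.5 in SSDS-GFP and 62.3 ± 7.89 in Control (SD, n = 3 each), with adjusted p-values from edgeR against Control of 0.0574 and 0.107. Car2, a carbonic anhydrase, averaged 230 ± 28.6 CPM in SSDS-GFP and 155 ± 25.6 in Control (adjusted p = 0.170). The creatine-synthesis enzyme Gamt averaged 17.8 ± 2.12 CPM in CSDS and 13.4 ± 1.93 in Control (adjusted p = 0.849). In SSDS-shACOT12 against SSDS-GFP the smallest p-values were those of Adamts4 (log2 fold change -0.41 ± 0.19) and Evi2a (-0.37 ± 0.22), both at an adjusted p of 0.803.

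Of 12 further genes of newly formed cells, edgeR called 0, with 1, 2, 3 and 0 at an unadjusted p under 0.05 in that order of comparisons, beside the same 4.53%, 24.2%, 15.2% and 5.87% of all genes. DESeq2 called 1, Rras2, and voom with weights 2, Rras2 and Tcf7l2, all in SSDS-shACOT12 against Control, where DESeq2 called 11.3% and voom 24.7% of all genes. Rras2, a small GTPase, averaged 25.4 ± 2.26 CPM in SSDS-shACOT12 and 35.3 ± 2.498 in Control (adjusted p = 0.0643), and Tcf7l2, a Wnt effector, 3.07 ± 0.986 in SSDS-shACOT12 and 4.68 ± 0.662 in Control (adjusted p = 0.187). Against Control, Cyfip2 was at -0.29 ± 0.14 on the log2 scale in CSDS and -0.33 ± 0.14 in SSDS-GFP, and Itpr2 at -0.31 ± 0.13 in SSDS-GFP. Nfasc, an adhesion protein of nodes, was at -0.20 ± 0.13 in CSDS against Control and at 0.28 ± 0.13 in SSDS-shACOT12 against SSDS-GFP.

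Of 17 further precursor genes, edgeR called 0, with 0, 2, 1 and 0 at an unadjusted p under 0.05 in that order (4.53%, 24.2%, 15.2% and 5.87% of all genes). DESeq2 also called 0, and voom with weights called 2, C1ql1 and Cspg5, in SSDS-shACOT12 against Control (24.7% of all genes). Of these 17 genes 11, 14, 13 and 13 had an edgeR fold change above 0 in that order. Of the 5 precursor genes of the list, 4 lay below 0 in each comparison. Tnr, a matrix glycoprotein, averaged 147 ± 20.8 CPM in SSDS-shACOT12, 150 ± 14.1 in SSDS-GFP, 154 ± 20.8 in CSDS and 187 ± 14.2 in Control, with adjusted p-values against Control of 0.164, 0.302 and 0.867. Cspg5, a neural proteoglycan, averaged 283 ± 30.3 CPM in SSDS-shACOT12, 257 ± 72.9 in SSDS-GFP and 202 ± 5.06 in Control, with adjusted p-values against Control of 0.110 and 0.348. Megf11 was at 0.50 ± 0.30 in CSDS against Control, and Emid1 and Bcan were at 0.69 ± 0.36 and 0.23 ± 0.15 in SSDS-shACOT12 against SSDS-GFP (log2 fold change ± SE).

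Of 24 tested genes for signals that act on the lineage, edgeR called 0, with 2, 5, 2 and 1 at an unadjusted p under 0.05 in that order, against the same shares of all genes. DESeq2 called 1, Lingo1, in SSDS-shACOT12 against Control (11.3% of all genes), and voom with weights called 8 there (24.7%) and 1, Jag1, in SSDS-GFP against Control (13.2%). Hes5, a Notch target that holds back maturation, averaged 8.92 ± 5.19 CPM in SSDS-GFP, 8.40 ± 0.736 in CSDS and 4.23 ± 0.444 in Control, with adjusted p-values against Control of 0.178 and 0.849. Lingo1, an inhibitor of myelination, averaged 326 ± 106 CPM in SSDS-shACOT12, 228 ± 27.8 in SSDS-GFP and 202 ± 22.3 in Control, with an adjusted p of 0.803 against SSDS-GFP and 0.0788 against Control. The ligand gene Pdgfb averaged 36.4 ± 7.08 CPM in SSDS-shACOT12 and 26.5 ± 3.77 in SSDS-GFP (adjusted p = 0.803), and Pdgfa 37.2 ± 2.33 in CSDS and 32.2 ± 2.37 in Control (adjusted p = 0.881). Lif, a cytokine, averaged 1.89 ± 0.904 CPM in SSDS-shACOT12, 1.61 ± 0.804 in SSDS-GFP and 0.617 ± 0.216 in Control, with adjusted p-values against Control of 0.0837 and 0.200.

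Markers of other cells were counted in the same libraries. Each sum given here and in the next paragraph covers all markers of its list, tested or not. Markers of Schwann cells, which make myelin outside the brain (3 of 6 tested), summed to 55.07 to 76.02 CPM in SSDS-shACOT12, 57.07 to 65.7 in SSDS-GFP, 57.49 to 69.3 in CSDS and 66.18 to 74.71 in Control. Of the 6 Schwann cell markers Pmp2 was at 0 in 10 of 12 libraries. Egr2, which neurons also make when active, had 2.17, 4.01 and 8.36 CPM in SSDS-shACOT12, 8.45, 4.46 and 3.09 in SSDS-GFP, 1.19, 1.45 and 0.845 in CSDS and 0.663, 0.714 and 1.49 in Control libraries, so that both virus groups lay wholly above Control. Of all genes 14% lay wholly above Control in SSDS-shACOT12 and 12.5% in SSDS-GFP. With edgeR the log2 fold change of Egr2 against Control was 2.32 ± 0.54 in SSDS-shACOT12 (adjusted p = 0.055) and 2.45 ± 0.54 in SSDS-GFP (adjusted p = 0.107). DESeq2 and voom called Egr2 in both. In that order DESeq2 called 11.3% and 3.61% of all genes, and voom 24.7% and 13.2%. Astrocyte markers (10 of 10 tested) summed to 3882 to 5340 CPM in SSDS-shACOT12, 4046 to 4475 in SSDS-GFP, 4116 to 4540 in CSDS and 4319 to 5015 in Control. Within them Gfap reached 1192 CPM in SSDS-shACOT12 3, while every other library had 221 to 396. Neuronal markers (10 of 10 tested) summed to 6963 to 8916 CPM in SSDS-shACOT12, 6686 to 8540 in SSDS-GFP, 7215 to 8650 in CSDS and 7250 to 7365 in Control. Microglial markers (8 of 8) ranged from 289 to 384 CPM and mural markers (7 of 8) from 209 to 311 over all libraries. Endothelial markers (8 of 8) summed to 243 to 268 CPM in SSDS-shACOT12, 218 to 243 in SSDS-GFP, 241 to 319 in CSDS and 251 to 307 in Control, and every SSDS-GFP library lay below every Control library. EdgeR called 0 of them. DESeq2 called Pecam1 (lower) in both virus groups against Control, and Slco1a4 (lower) and Cldn5 (higher) in SSDS-shACOT12 against Control. Of the astrocyte and neuronal markers it called Slc4a4 (lower) and Tubb3 (higher), also in SSDS-shACOT12 against Control. Voom with weights called Pecam1, Slco1a4, Fgfr3, Slc4a4 and Tubb3 in SSDS-GFP against Control. In SSDS-shACOT12 against Control it called Cldn5, Slco1a4, Slc4a4, Slc17a7, Tubb3, Map2 and P2ry12. The shares of all genes called are those given for Egr2.

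Fibroblast markers (7 of 8 tested) summed to 30.8 to 124 CPM in SSDS-shACOT12, 22.8 to 116 in SSDS-GFP, 31.6 to 85.7 in CSDS and 38.6 to 44.3 in Control. Choroid plexus markers (3 of 8 tested) summed to 12.6 to 30.9 CPM in SSDS-shACOT12, 16.2 to 40.6 in SSDS-GFP, 18.2 to 25.0 in CSDS and 37.6 to 556 in Control. DESeq2 called Ttr (lower) in each of the 3 comparisons with Control, where it called 11.3% of all genes in SSDS-shACOT12, 3.61% in SSDS-GFP and 0.0355% in CSDS. Voom with weights called Kl (lower) in SSDS-shACOT12 against Control (24.7% of all genes). The part of the other cell types in the values of the oligodendrocyte genes was not tested.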

How the data were processed

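RNA was sequenced from the ventral hippocampus, with 12 libraries in 4 groups of 3 taken from the labels. Per the labels' protocols, an NEBNext Ultra RNA kit was used on 1 µg of total RNA. Per the submitters' processing notes, the tools named are HISAT2 2.0.5, featureCounts 1.5.0-p3 and DESeq2, and the build is mm10; roles, strand setting and annotation release are not given in the sources used here. The deposited counts are whole numbers of reads per gene. The FPKM values deposited by the authors imply a library size of 0.958 to 1.06 times the count total, and gene length is in bases per the file headers. FPKM rows were matched to counts by gene ID.

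All tests used counts, in R 4.3.3 with edgeR 4.0.16. The filter was filterByExpr with a minimum count of 10 and a minimum total of 15. Libraries were scaled by TMM and fitted in 1 quasi-likelihood model of all 12 libraries with group as the only factor. Log2 CPM used a prior count of 2. The 16 mature genes are the myelin, adhesion, lipid, carrier and receptor genes. The 30 genes, the other lists and the tests were chosen with earlier results of these data known. Values per library are given for genes called or, with under 5 called, for the 5 of smallest p per comparison, and for 20 listed genes; other lists give the 2 of smallest p, and some genes this rule names are not reported here. GC content was that of the longest transcript in GENCODE M21. Alternatives included DESeq2 1.42.0, limma 3.58.1 on log2(FPKM + 0.1) and log2(FPKM + 1), voom with library weights, other filters, each library left out, a replicate block, 3 libraries left out together and the GC trend removed (lowess span 0.3). The last 2 were chosen after seeing the data. The scripts were tested on simulated data. Replicates differed by 7.13 to 86.6 times the counting noise (chi-square per degree of freedom), so none was a duplicate. Same-numbered SSDS-shACOT12 and SSDS-GFP libraries had correlations of deviations of 0.196, 0.419 and 0.353, all above 0.1. No other pair of groups had every same-numbered value above 0.1. Libraries of unlike number passed the same bound: SSDS-shACOT12 1, 2 and 3 with Control 3, 1 and 2 gave 0.2115, 0.2067 and 0.2004. The labels name no pairs, so the numbers are not shown to pair the samples. Nothing was corrected for strand: 16 of the 30 genes overlap another gene.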

Additional observations from a re-analysis of the deposited data

How the results depend on the processing

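The lowest count of a listed gene in a library was 15, for Bmp4, and every other listed gene had more in every library. In CSDS against Control 0 of the 30 genes were called under every alternative run. The other counts moved with the setting. With voom library weights 3 genes were called in SSDS-GFP against Control (Mbp, Trf and Bcas1; 13.2% of all genes) and 10 in SSDS-shACOT12 against Control (24.7% of all genes). In SSDS-shACOT12 against Control DESeq2 called 1 (Sox10; 11.3% of all genes) and the fit with no filter called 3 (Tspan2, Aspa and Sox10; 5.31% of all genes). Leaving out 1 library gave 0 to 3 called genes in SSDS-shACOT12 against SSDS-GFP and 0 to 10 in SSDS-shACOT12 against Control. The 3 (Ermn, Tspan2 and Lhfpl3; 5.70% of all genes) and the 10 (Mal, Cldn11, Ermn, Tspan2, Gjc3, Aspa, Sox10, Pdgfra, Lhfpl3 and Ptprz1; 24.5% of all genes) came without SSDS-shACOT12 2, and without SSDS-GFP 2 1 gene, Sox10, was called against Control (2.98% of all genes). Mature minus precursor in SSDS-shACOT12 against SSDS-GFP was -0.585 without SSDS-GFP 3, SSDS-shACOT12 1 and SSDS-shACOT12 3 together, which leaves 1 library against 2. The cause of these shifts was not tested. With the replicate number as a block, 0 genes were called in each comparison, so the block changed no call. Mature minus precursor cannot move under the block, since each group has 1 library of each number. Replicate numbers were not shown to pair the samples: over all groups 5 of 18 same-numbered pairs and 11 of 36 other pairs correlated above 0.1. Signs were compared over 17 alternatives. These were DESeq2, its size factors in edgeR, only the libraries compared, the replicate block, voom with weights and each library left out. The fold change took the other sign at least once for 16 of the 30 genes in SSDS-shACOT12 against SSDS-GFP and 9 in SSDS-shACOT12 against Control. It did so for 15 in SSDS-GFP against Control and 15 in CSDS against Control. Filters, FPKM fits, the joint omission and GC trend removal were not among the 17. With the GC trend removed, Fa2h, Olig1, Olig2 and Vcan also changed sign in SSDS-shACOT12 against Control.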
